A study of Mus musculus with 5 samples.

Results

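Genes that mark T cells, natural killer (NK) and cytotoxic cells, and B cells were examined in the esophagus of mice with an inducible IL-13 transgene. The 35 genes were selected by name as lymphocyte genes, by a rule that uses no measured value although it was drawn up with earlier results of these data known, and 34 of them had a probe set of their own among the 18193 genes tested. They comprised 21 T cell genes, 7 cytotoxic and NK genes and 6 B cell genes. Lck, the kinase that starts T cell receptor signalling, was not analysed here. All mice carried the CC10-rtta and teton-IL-13 transgenes on an FVB/N background and were 3 to 4 months old. The CC10 promoter is active in airway club cells and drives the transactivator that doxycycline switches on. The Dox group (3 arrays) was fed doxycycline and the NoDox group (2 arrays) a regular diet. With no doxycycline-fed mice lacking the transgenes among these arrays, effects of the drug and of the cytokine cannot be told apart. Whether every array stands for its own mouse is not given in the labels, and the p-values describe the spread among the 5 arrays alone.

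T cells recognise antigen through a receptor whose signal is carried into the cell by the CD3 chains, and CD4 and CD8 steady that contact. NK cells and cytotoxic T cells kill targets by releasing perforin and granzymes, and B cells signal through CD79A and CD79B beside their surface antibody. In the esophagus lymphocytes are a minority among squamous epithelium, stroma and muscle. IL-13 is a type 2 cytokine, made mainly by T helper 2 cells and type 2 innate lymphoid cells, and is known for its part in allergic inflammation of this organ.

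Each value is the signal of a probe set relative to its average over the 2 NoDox arrays, so that 1 is the NoDox level. Where signals are given, they were recovered from these ratios and are in arbitrary units. Krt4 and Krt13, the defining keratins of esophageal squamous epithelium, were bright: their signals have only lower bounds, 4022 and 4709 units in NoDox 1. Krt4 had a log2 fold change of -0.03 ± 0.13 (SE; limma adjusted p = 0.946). Krt13 had -0.20 ± 0.13 (adjusted p = 0.457), with every Dox array below both NoDox arrays. Of 11 measured genes of this epithelium, 0 had an adjusted p under 0.05. All Dox arrays lay above both NoDox arrays for 3 of them and below for 3. Differences in signal between probe sets are not read as differences in expression here, since probes differ in brightness. In whole tissue, fewer cells of a type and less RNA per cell cannot be told apart.

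In Dox, 1 lymphocyte gene rose, the NK receptor subunit Klrd1, where 1.39% of all genes tested rose. Another, the nuclear receptor gene Rora, fell, where 1.24% of all genes fell. A gene was called at a limma p under 0.05 after Benjamini-Hochberg adjustment over all 18193 genes. At an unadjusted p under 0.05 the counts were 7 higher and 2 lower of 34, beside 6.81% and 10.7% of all genes. Fold changes lay above 0 for 25 of 34 genes, against 42% of all genes. The median log2 fold change was 0.76 for the 34 genes and -0.08 for all genes tested.

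The 3 lineages had different profiles over the arrays. All 3 Dox arrays lay above both NoDox arrays for 4 of 7 cytotoxic and NK genes, 4 of 6 B cell genes and 3 of 21 T cell genes, where 13.6% of all genes did so. All Dox arrays lay below both NoDox arrays for 3 T cell genes and for 0 genes of the other lineages, where 22.3% of all genes did so. The median log2 ratio of the cytotoxic and NK genes was 1.18, 0.74 and 0.62 in Dox 1, Dox 2 and Dox 3, so that each Dox array stood above the NoDox level. That of the B cell genes was 0.32, 0.41 and 3.50, with 1 array far above the others. That of the T cell genes was 0.15, 0.08 and 0.60, while the NoDox arrays had 0.15 and -0.17. The SD over the 3 Dox array medians was 0.29 for cytotoxic and NK genes, 0.28 for T cell genes and 1.81 for B cell genes. Differences between lineages were not tested.

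**Figure D1:**
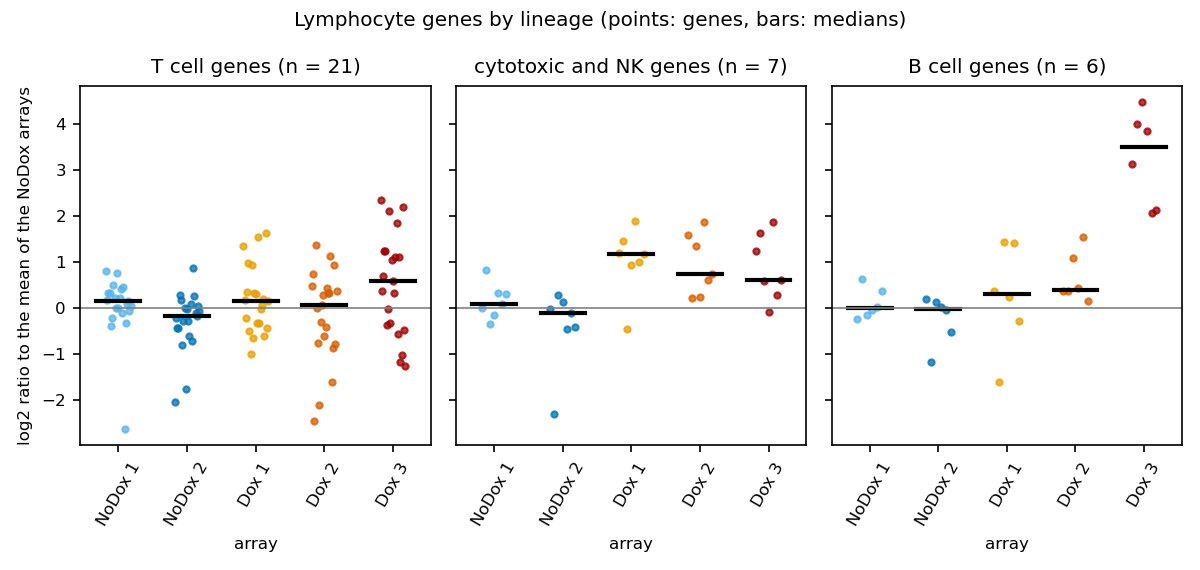
Log2 ratio to the NoDox average (vertical axis) in each of the 5 arrays (horizontal axis), for 21 T cell, 7 cytotoxic and NK, and 6 B cell genes. Each point is a gene and each bar the median: the B cell median reaches 3.50 in Dox 3 and stays at 0.41 or less in the other arrays, while the cytotoxic and NK medians of the Dox arrays lie between 0.62 and 1.18.

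Among the cytotoxic and NK genes, Klrd1 encodes CD94, the partner chain of the NKG2 receptors. Its ratio was 3.73, 3.66 and 3.70 in Dox 1 to 3 and 1.27 and 0.734 in NoDox 1 and 2. The 3 Dox arrays were almost equal, and the spread lay between the NoDox arrays. Its log2 fold change was 1.94 ± 0.34 (SE, 3 against 2 arrays; limma adjusted p = 0.0214). On the recovered scale the signals were 659, 647 and 653 in Dox and 224 and 130 in NoDox. With 1 array left out, the call held without Dox 2 (adjusted p = 0.0263) but not without Dox 1 (0.0502), Dox 3 (0.0766), NoDox 1 (0.0951) or NoDox 2 (0.231).

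Nkg7, a membrane protein of cytotoxic granules, had ratios of 2.29, 3.03 and 2.36 in Dox and of 1.0 and 0.997 in NoDox. All Dox arrays were above both NoDox arrays, with a log2 fold change of 1.34 ± 0.38 that did not pass the test (adjusted p = 0.108). Ncr1 encodes NKp46, an activating receptor of NK cells and some innate lymphoid cells. Its ratios were 2.27, 1.67 and 1.54 in Dox and 1.24 and 0.759 in NoDox, again without overlap (0.89 ± 0.50, adjusted p = 0.407). Klrk1 encodes the activating receptor NKG2D, and it had 2.02, 1.54 and 1.23 in Dox against 1.06 and 0.938 in NoDox (0.65 ± 0.37, adjusted p = 0.416).

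The granule effectors overlapped between the diets. Gzma, a granzyme of NK and cytotoxic T cells, had ratios of 2.75, 1.18 and 3.13 in Dox and 1.80 and 0.204 in NoDox. Its NoDox arrays differed more than the Dox arrays did, and its log2 fold change was 1.84 ± 0.87 (adjusted p = 0.318). Gzmb, the granzyme that activates caspases in the target cell, had 0.731, 2.55 and 1.52 in Dox and 0.784 and 1.22 in NoDox (0.54 ± 0.68, adjusted p = 0.741). Prf1 encodes perforin, which forms the pore for granzymes. It had 1.92, 1.18 and 0.952 in Dox and 0.90 and 1.10 in NoDox, and its 2 probe sets gave 0.38 and 0.47 on the log2 scale. None of the 7 genes was at least 2-fold above all other arrays in Dox 3.

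**Figure D2:**
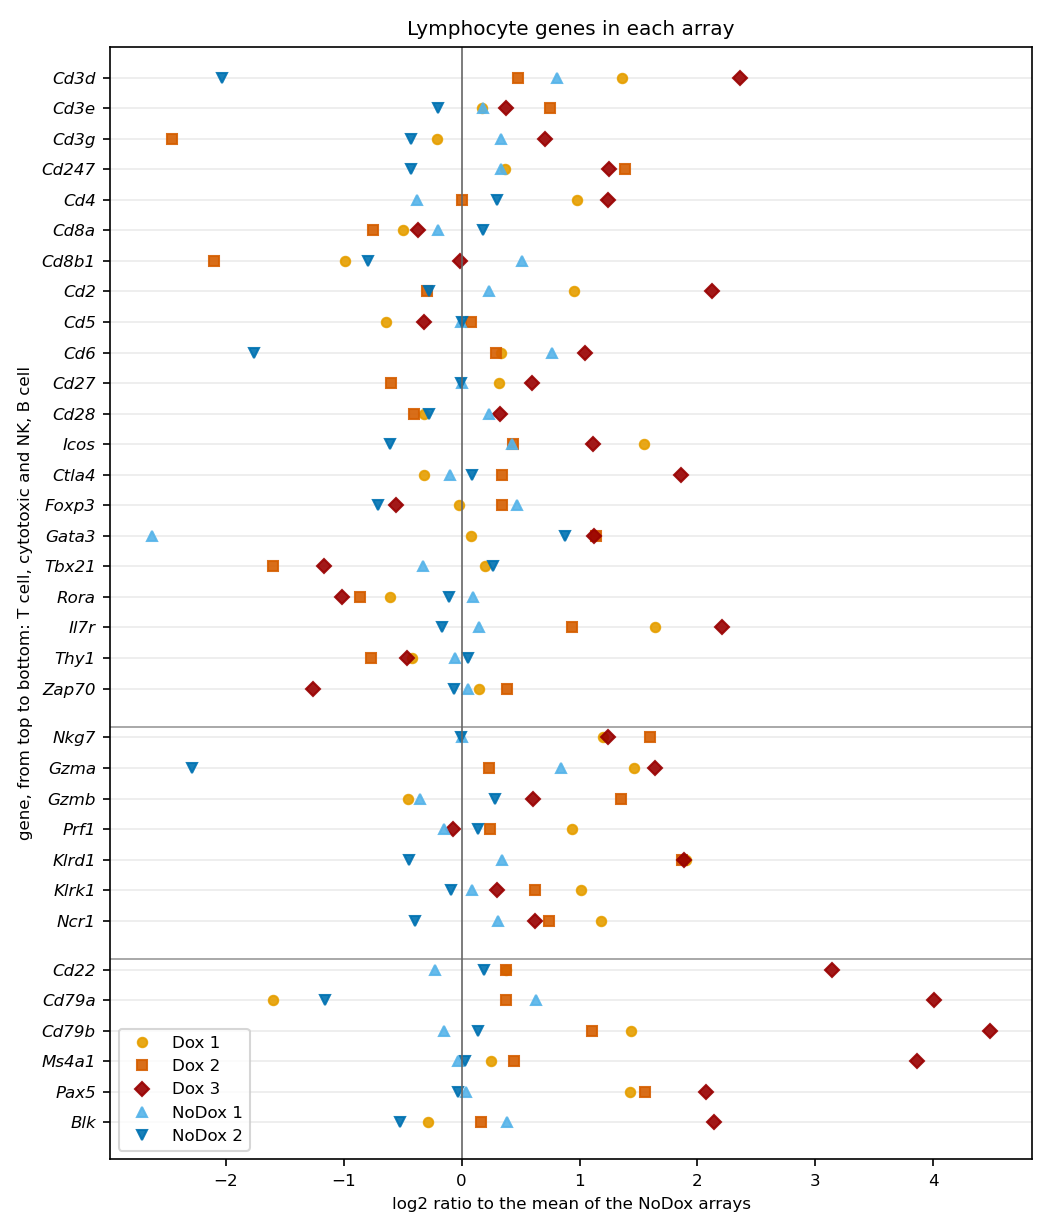
Log2 ratio to the NoDox average (horizontal axis) for each of the 34 lymphocyte genes (vertical axis), with a marker for each of the 5 arrays. The 3 Dox markers of Klrd1 coincide near 1.9, the Rora markers of Dox lie left of both NoDox markers, and 6 of 6 B cell genes have their highest value in Dox 3.

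Promoters are shown for a part of the cytotoxic and NK genes, and the windows of Klrk1 and Prf1 are not printed. Fold changes lay above 0 in 7 of 7 genes of this lineage, as in 6 of 6 B cell genes. The 250 bases before the transcript start were taken from RefSeq (GRCm38.p6), which held a window for 23 of the 34 genes, 6 of them cytotoxic or NK genes. Capitals mark TGTGGT, the core bound by RUNX factors, and CAGGAAG, a site type of ETS factors, in either orientation. The windows are Nkg7 at chr7:43436888-43437137 (+ strand), Gzma at chr13:113100982-113101231 (- strand), Gzmb at chr14:56262335-56262584 (- strand) and Ncr1 at chr7:4337465-4337714 (+ strand). The B cell gene Cd79a at chr7:24897247-24897496 (+ strand) is printed for comparison. Each is given on the strand of its gene, from 5′ to 3′.
Nkg7: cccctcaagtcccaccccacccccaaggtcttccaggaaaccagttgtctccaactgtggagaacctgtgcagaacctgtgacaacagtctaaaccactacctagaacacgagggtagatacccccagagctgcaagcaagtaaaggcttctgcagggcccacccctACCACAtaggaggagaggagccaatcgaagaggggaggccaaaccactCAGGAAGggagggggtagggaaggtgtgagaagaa
Gzma: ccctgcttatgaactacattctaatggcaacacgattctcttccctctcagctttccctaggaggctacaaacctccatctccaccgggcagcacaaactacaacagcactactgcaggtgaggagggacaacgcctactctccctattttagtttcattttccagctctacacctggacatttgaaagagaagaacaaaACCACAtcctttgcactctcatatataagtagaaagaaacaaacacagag
Gzmb: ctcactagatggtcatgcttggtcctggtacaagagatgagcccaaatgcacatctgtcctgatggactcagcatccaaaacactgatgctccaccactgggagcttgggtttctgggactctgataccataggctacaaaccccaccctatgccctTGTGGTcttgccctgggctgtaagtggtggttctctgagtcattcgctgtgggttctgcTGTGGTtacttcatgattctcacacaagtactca
Ncr1: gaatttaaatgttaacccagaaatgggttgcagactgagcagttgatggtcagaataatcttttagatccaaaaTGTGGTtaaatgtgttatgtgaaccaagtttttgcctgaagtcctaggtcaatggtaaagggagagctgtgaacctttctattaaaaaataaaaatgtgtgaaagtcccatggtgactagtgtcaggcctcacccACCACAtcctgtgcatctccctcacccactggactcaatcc
Cd79a: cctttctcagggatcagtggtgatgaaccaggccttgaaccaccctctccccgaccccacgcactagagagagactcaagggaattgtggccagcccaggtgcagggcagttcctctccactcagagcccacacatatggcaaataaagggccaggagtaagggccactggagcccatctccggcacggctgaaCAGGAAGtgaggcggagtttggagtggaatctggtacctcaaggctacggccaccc

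TGTGGT was present for 6 of 6 cytotoxic and NK genes (Gzma, Gzmb, Klrk1, Ncr1, Nkg7 and Prf1). It was present for 1 of 14 T cell genes (Zap70) and 0 of 3 B cell genes. A gene counts if any window of it has a match, whereas the shares of all windows are over single windows. TGTGGT was present in 14.0% of all 32851 windows held by RefSeq here. CAGGAAG was present for 9 of 23 genes (6 T cell, 2 cytotoxic and 1 B cell gene) and in 10.8% of all windows. It does not overlap TGTGGT in the windows printed. The other motifs were searched on both strands in the same way. CCCNNGGG of the EBF1 type was found for 4 of 23 genes and in 11.8% of all windows. The octamer ATGCAAAT was found for 0 genes (1.6% of windows) and the STAT6 type, TTC and GAA 4 bases apart, for 0 (5.9%). AGATAA of the GATA type was found for 2 genes (10%), the E-box CAGCTG for 2 (13%) and the GC box GGGCGG for 4 (32.7%). A match describes these letters in this window only, and the 8 motifs were not tested against the fold changes.

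The B cell genes were high in 1 array. Cd79b, a signalling chain of the B cell receptor, had ratios of 2.70, 2.15 and 22.4 in Dox and 0.902 and 1.10 in NoDox. All Dox arrays lay above both NoDox arrays, but Dox 3 stood far above Dox 1 and Dox 2, and the log2 fold change of 2.35 ± 0.88 did not pass the test (adjusted p = 0.206). Cd79a, the other signalling chain, had 0.329, 1.30 and 16.1 in Dox and 1.55 and 0.447 in NoDox. Dox 1 was its lowest array and Dox 3 its highest (1.19 ± 1.36, adjusted p = 0.708), and without Dox 3 the fold change was -0.35.

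Ms4a1 encodes CD20, a surface protein of mature B cells. Its ratios were 1.19, 1.36 and 14.5 in Dox and 0.981 and 1.02 in NoDox (1.52 ± 0.90, adjusted p = 0.434), and its second probe set reached 24.2 in Dox 3. Cd22, an inhibitory receptor of B cells, had 1.30, 1.30 and 8.82 in Dox and 0.857 and 1.14 in NoDox (1.31 ± 0.73, adjusted p = 0.40). At the brighter probe set of both genes Dox 1 and Dox 2 lay just above the NoDox arrays, and Dox 3 several-fold higher. The second, dimmer probe set of Cd22 had 1.72, 3.82 and 14.0 in Dox and 1.33 and 0.672 in NoDox (2.25 ± 0.90). There Dox 2 also stood well above both NoDox arrays. Blk, a Src-family kinase of B cells, had 0.823, 1.12 and 4.41 in Dox and 1.30 and 0.696 in NoDox, so that Dox 1 and Dox 2 lay within the NoDox range (0.74 ± 0.71, adjusted p = 0.648).

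Pax5, the transcription factor that keeps B cells in their lineage, had the most even ratios of the 6 over the Dox arrays. It had 2.70, 2.95 and 4.21 in Dox and 1.02 and 0.976 in NoDox, with all Dox arrays well above both NoDox arrays. The log2 fold change was 1.69 ± 0.45 (adjusted p = 0.0909). Its second probe set had 2.62, 2.45 and 2.79 in Dox and 0.942 and 1.06 in NoDox (1.39 ± 0.88). That probe set was dim, with NoDox signals of 12 and 13.5 units. All 9 probe sets of the 6 B cell genes had fold changes above 0, and 0 passed the limma test. At an unadjusted p under 0.05, 2 of the 6 genes were higher (Cd79b and Pax5), beside 6.81% of all genes.

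In Dox 3, 5 of 6 B cell genes (all but Pax5), 3 of 21 T cell genes (Cd3d, Cd2 and Ctla4) and 0 of 7 cytotoxic and NK genes were at least 2-fold above each of the other 4 arrays, where 1.17% of all genes were. No lymphocyte gene did so in Dox 1, Dox 2, NoDox 1 or NoDox 2, where 0.907%, 1.19%, 0.83% and 0.846% of all genes did. This rule was chosen after the values had been seen. Without Dox 3 the median log2 fold change of the B cell genes was 0.37 in place of 1.42. Dox 1 and Dox 2 together lay above both NoDox arrays for 4 of 6 B cell genes, 5 of 7 cytotoxic and NK genes and 4 of 21 T cell genes, against 18.9% of all genes.

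**Figure D3:**
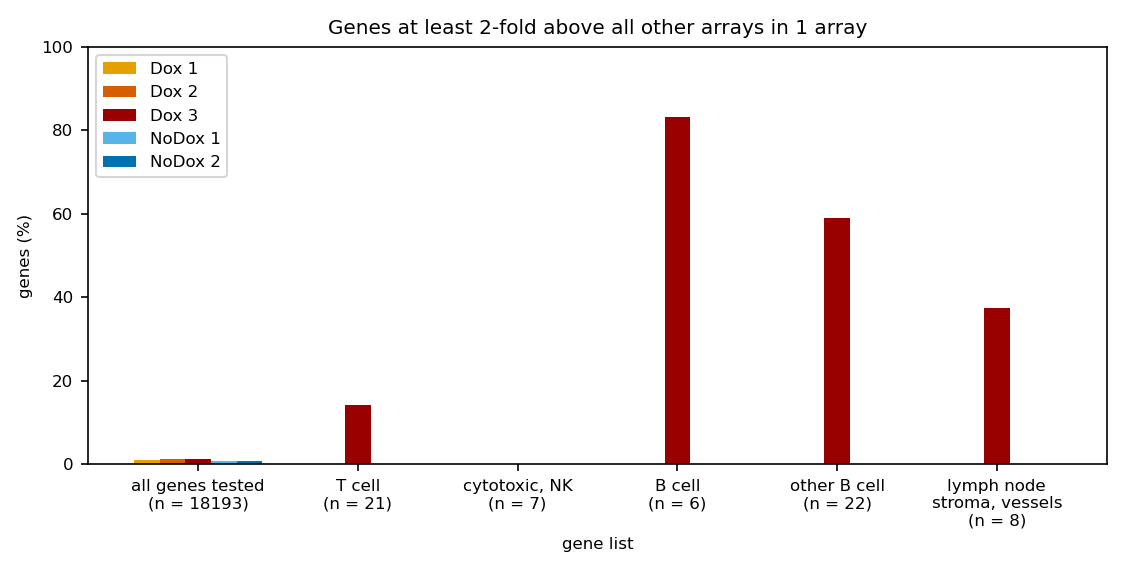
Share of genes (vertical axis, percent) that are at least 2-fold above each of the other 4 arrays in 1 array, for each gene list (horizontal axis, n = genes measured) and each array (bar colour). Dox 3 holds 5 of 6 B cell genes, 13 of 22 other B cell genes and 3 of 8 lymph node genes, while the bars of all genes stay near 1%.

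Among 22 further B cell genes measured of 23 listed, 13 met the same rule in Dox 3. They included Fcrl1, a receptor of the Fc receptor-like family (35.4 in Dox 3), the transcriptional coactivator Pou2af1 (18.2), the complement receptor Cr2 (12.2) and the low-affinity IgE receptor Fcer2a (11.2). Ratios over low NoDox signals are uncertain: Fcrl1 had 916 units in Dox 3 against 19.6 and 32.2 in NoDox. Over the 22 genes the median log2 ratio was 0.11, 0.51 and 2.09 in Dox 1 to 3. None of the 22 passed the limma test in either direction. At an unadjusted p under 0.05, 5 were higher, beside 6.81% of all genes. Fold changes lay above 0 for 19, against 42% of all genes. H2-Ob, a chain that tempers antigen loading in B cells, had ratios of 4.12, 2.58 and 22.3 in Dox and 1.44 and 0.555 in NoDox (2.79 ± 0.83, adjusted p = 0.124). It thus resembled Cd79b in standing above NoDox in every Dox array and highest in Dox 3.

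Other cell markers moved with the B cell genes in Dox 3. Among 8 measured lymph node genes of 10 listed, 3 met the rule. Glycam1, a glycoprotein of high endothelial venules, had 0.392, 0.626 and 110.5 in Dox and 1.19 and 0.810 in NoDox. It was low in 4 arrays and high in Dox 3, with a signal of 3882 units there against 41.8 and 28.5 in NoDox. Ltb, a lymphotoxin chain made by lymphocytes, had 3.78, 6.88 and 27.1 in Dox and 0.905 and 1.10 in NoDox (3.16 ± 0.71, adjusted p = 0.0566). Cxcl13, the chemokine of B cell follicles, had 1.59, 0.988 and 4.85 in Dox. Madcam1, an addressin of gut vessels, was at 1.38 in Dox 3, close to its other values. Over the 7 lymph node genes with a recovered level, the summed signal was 3046 to 8818 in Dox and 2125 to 2772 in NoDox. Glycam1 gave 3882 of these units in Dox 3. None of the 8 genes passed the limma test in either direction. At an unadjusted p under 0.05, 1 was higher (Ltb), beside 6.81% of all genes.

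Genes shared by all leukocytes were above both NoDox arrays in every Dox array for 11 of 11 measured, against 13.6% of all genes. Of the 11, 4 rose (Itgb2, Laptm5, Cd53 and Rac2). With each array left out in turn, Itgb2 was called in 5 of 5 fits, Laptm5 in 3, and Cd53 and Rac2 in 1 each. Their median log2 ratio was 1.13, 0.99 and 1.91 in Dox 1 to 3. Lung genes, alveolar but for a club cell gene, rose in 5 of 7, with medians of 2.23, 1.75 and 3.39, and 7 of 7 were highest in Dox 3. The 5 that rose were each called in 3 of the 5 fits. The surfactant gene Sftpc had 4.69, 3.16 and 6.22 in Dox and 1.02 and 0.976 in NoDox. Plasma cell genes had medians of 0.66, 0.90 and 2.09, and 1 of 10 rose. This was Derl3, a gene of protein quality control in the endoplasmic reticulum, at 7.46, 9.73 and 9.90 in Dox and 0.932 and 1.07 in NoDox (3.17 ± 0.31, adjusted p = 0.00139, called in 5 of 5 fits with an array left out). It was about equally high in the 3 Dox arrays. Thymus genes, 10 in number, had a median log2 fold change of -0.23, with 0 called by limma. At an unadjusted p under 0.05, 1 was lower, beside 10.7% of all genes. The part of these markers in the lymphocyte values was not tested.

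The T cell receptor complex and its co-receptors had no gene called by limma among 7, and their median log2 fold change was 0.45. At an unadjusted p under 0.05, 1 was higher (Cd3d), beside 6.81% of all genes. Cd3d, a CD3 chain, had ratios of 2.57, 1.39 and 5.15 in Dox and 1.76 and 0.244 in NoDox. Dox 3 was highest, but the NoDox arrays themselves differed several-fold and overlapped Dox (2.01 ± 0.81, adjusted p = 0.239). Cd3e, the CD3 chain that most antibodies to T cells bind, had 1.13, 1.69 and 1.30 in Dox and 1.13 and 0.869 in NoDox (0.45 ± 0.36, adjusted p = 0.573). Cd3g, a further CD3 chain, had 0.865, 0.182 and 1.63 in Dox and 1.26 and 0.741 in NoDox (-0.60 ± 0.82, adjusted p = 0.759). Dox 2 was lowest and Dox 3 highest, on both sides of the NoDox arrays. These 3 genes are neighbours in the RefSeq annotation, and their fold changes had different signs.

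Cd247, the zeta chain that carries most of the signalling motifs, had 1.29, 2.61 and 2.38 in Dox and 1.26 and 0.741 in NoDox (1.05 ± 0.56, adjusted p = 0.378). Its 4 probe sets disagreed, with log2 fold changes from -1.17 to 2.38. Cd4, the co-receptor of helper T cells, had 1.97, 1.0 and 2.37 in Dox and 0.771 and 1.23 in NoDox (0.78 ± 0.76, adjusted p = 0.654), at signals between 32.8 and 101 units.

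The chains of CD8, the co-receptor of cytotoxic T cells, had fold changes below 0. Cd8a had 0.707, 0.595 and 0.772 in Dox and 0.868 and 1.13 in NoDox, with every Dox array below both NoDox arrays (-0.53 ± 0.28, adjusted p = 0.378). Of its 5 probe sets, 2 lay above 0 and the range was -2.02 to 0.40. Cd8b1 had 0.504, 0.233 and 0.989 in Dox and 1.42 and 0.577 in NoDox (-0.89 ± 0.73, adjusted p = 0.583). Neither chain passed the test, and both differed in sign from 7 of 7 cytotoxic and NK genes.

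Adhesion and costimulatory receptors had no gene called by limma among 7, and a median of 0.63. At an unadjusted p under 0.05, 1 was higher (Icos), beside 6.81% of all genes. Icos, a costimulator induced on activated T cells, had 2.92, 1.36 and 2.17 in Dox and 1.34 and 0.657 in NoDox. The Dox arrays lay above both NoDox arrays, Dox 2 by a small margin (1.12 ± 0.47, adjusted p = 0.257), and its 3 probe sets gave 1.12 to 1.67. Cd2, an adhesion receptor of T and NK cells, had 1.93, 0.818 and 4.37 in Dox and 1.17 and 0.828 in NoDox (0.95 ± 0.67, adjusted p = 0.516). Ctla4, an inhibitory receptor that is abundant on regulatory T cells, had 0.801, 1.27 and 3.64 in Dox and 0.935 and 1.06 in NoDox (0.63 ± 0.69, adjusted p = 0.691). Both were highest in Dox 3 and within or near the NoDox range in Dox 2.

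Cd6, a scavenger-type receptor of T cells, had 1.26, 1.22 and 2.07 in Dox and 1.70 and 0.296 in NoDox (1.05 ± 0.76, adjusted p = 0.527). Its neighbour Cd5, an inhibitor of T cell receptor signalling, had 0.642, 1.06 and 0.804 in Dox and 0.998 and 1.0 in NoDox (-0.29 ± 0.20, adjusted p = 0.509). The NoDox arrays of Cd5 were nearly equal and lay inside the Dox range. Cd27, a costimulator of the TNF receptor family, and Cd28, the main costimulator of naive T cells, had log2 fold changes of 0.11 ± 0.50 and -0.11 ± 0.38 (adjusted p = 0.942 and 0.914). Cd28, Ctla4 and Icos lie next to each other in the genome, at -0.11, 0.63 and 1.12.

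Of the lineage transcription factors, Rora fell. It encodes the nuclear receptor RORα, which type 2 innate lymphoid cells need but which many other cells also express. Its ratios were 0.657, 0.549 and 0.496 in Dox and 1.07 and 0.928 in NoDox, on recovered signals of 3049, 2547 and 2302 against 4973 and 4306. Each Dox array lay below both NoDox arrays. The log2 fold change was -0.82 ± 0.16 (limma adjusted p = 0.0283). The call held without Dox 1 (adjusted p = 0.0240) or Dox 2 (0.0297), but not without Dox 3 (0.118), NoDox 1 (0.288) or NoDox 2 (0.181). Genes of other cells also differed between the diets. Skeletal muscle genes fell in 3 of 12 (log2 fold changes of -5.96 for Myl2, -4.04 for Myh7 and -3.06 for Myh4). All Dox arrays lay below both NoDox arrays for 8 of 12, where 22.3% of all genes did so. Macrophage genes rose in 5 of 11. Their part in the Rora value was not tested.

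Rora has 9 probe sets on the array. Fold changes lay below 0 for 7 of them, and 4 passed the test adjusted over all probe sets, with values between -0.82 and -1.10. The other 2 lay above 0, at 0.53 and 1.87, and were among the dimmest of the 9. The mean over all 9 was -0.37 and did not pass the test (adjusted p = 0.324). Of the 12 lymphocyte genes with several probe sets, 8 had the same sign in each and 4 did not (Cd247, Cd8a, Rora and Zap70).

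**Figure D4:**
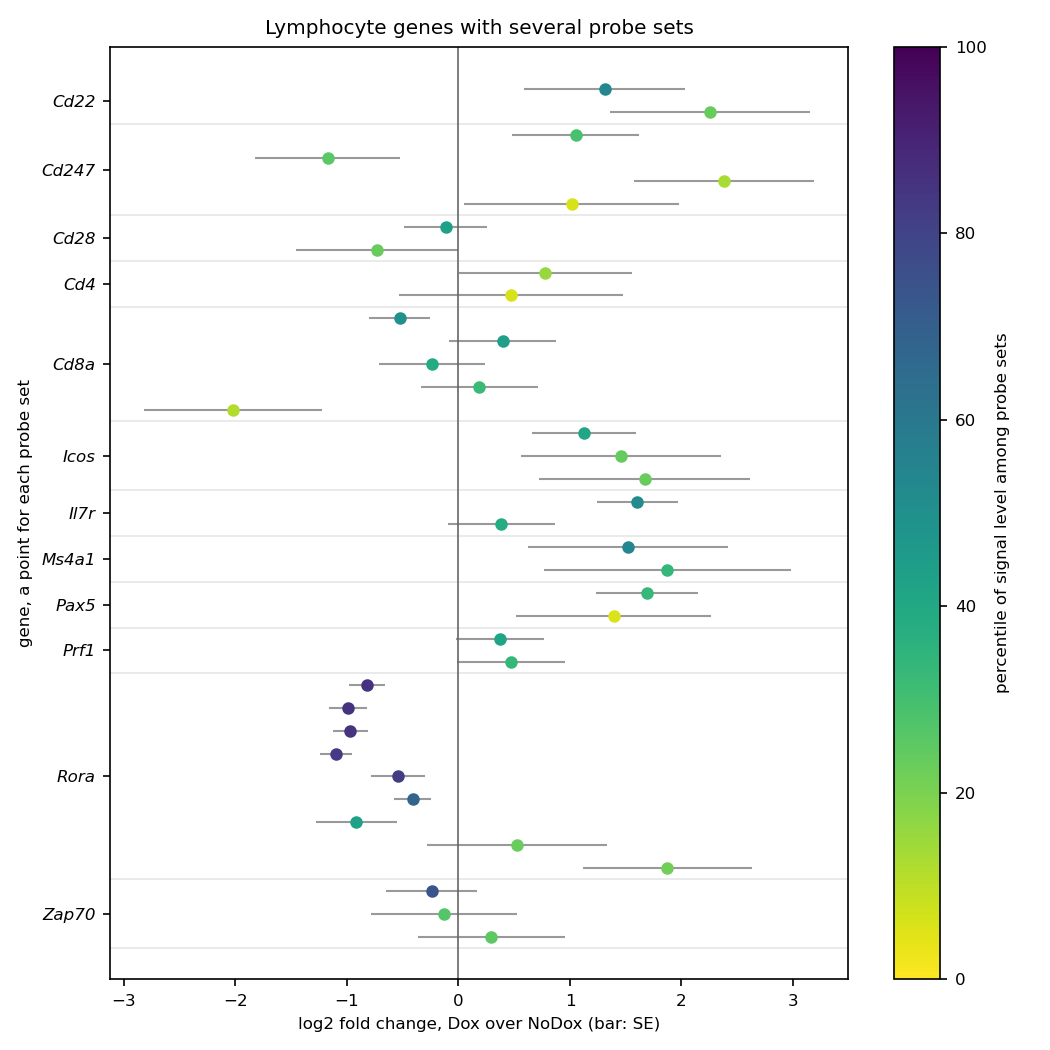
Log2 fold change of Dox over NoDox (horizontal axis; bars are standard errors) for every probe set of the 12 lymphocyte genes with more than 1 (vertical axis), coloured by the percentile of signal level among probe sets. The brighter Rora probe sets lie below 0 and the dim ones at 0.53 and 1.87 above it, and the 3 Icos probe sets lie between 1.12 and 1.67.

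Gata3, the regulator of type 2 T helper cells and type 2 innate lymphoid cells, had 1.06, 2.20 and 2.17 in Dox and 0.162 and 1.84 in NoDox. The NoDox arrays were further apart than the Dox arrays, and the difference did not pass the test (1.65 ± 0.97, adjusted p = 0.428; -0.10 without NoDox 1). Tbx21 encodes T-bet, the regulator of type 1 T cells and NK cells. It had 1.15, 0.329 and 0.447 in Dox and 0.796 and 1.20 in NoDox (-0.83 ± 0.77, adjusted p = 0.639). Foxp3, the regulator of regulatory T cells, had 0.986, 1.27 and 0.678 in Dox and 1.39 and 0.612 in NoDox, at signals of 28 to 64 units (0.04 ± 0.82, adjusted p = 0.988). The groups overlapped.

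Il7r encodes the interleukin-7 receptor chain, which naive and memory T cells and innate lymphoid cells use for survival. Its ratios were 3.12, 1.91 and 4.62 in Dox and 1.11 and 0.891 in NoDox. The groups did not overlap, and the log2 fold change was 1.60 ± 0.37 (adjusted p = 0.0600). It passed the test without Dox 2 (adjusted p = 0.0109). Its second, dimmer probe set gave 0.39 ± 0.48.

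Thy1, a surface glycoprotein of T cells that fibroblasts and neurons also carry, had 0.747, 0.587 and 0.724 in Dox and 0.963 and 1.04 in NoDox. Every Dox array lay below both NoDox arrays, with a log2 fold change of -0.55 ± 0.16 (adjusted p = 0.108). Zap70, the kinase recruited to the activated T cell receptor, had 1.11, 1.30 and 0.417 in Dox and 1.04 and 0.959 in NoDox. These ratios are from its brightest probe set (limma adjusted p = 0.812), where Dox 3 was the lowest array. In its other, dimmer probe sets Dox 3 was the highest array, at 1.57 and 2.15. The log2 fold changes of the 3 probe sets ranged from -0.24 to 0.30.

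Other genes of the same pathways were read from further lists. Over all genes tested, 1.39% rose and 42% had fold changes above 0. At an unadjusted p under 0.05, 6.81% of all genes were higher and 10.7% lower. Of 14 measured T cell receptor signalling genes 1 rose: Lcp2, which encodes the adaptor SLP-76, at 2.74, 2.15 and 2.62 in Dox and 1.11 and 0.893 in NoDox (1.33 ± 0.29, adjusted p = 0.0499). Its call was lost with an offset of 20 signal units (adjusted p = 0.0516). With single arrays left out it held without Dox 2 (0.0370) and not without Dox 1, Dox 3, NoDox 1 or NoDox 2 (0.0999 to 0.357). Fyb, an adaptor that SLP-76 binds, had a log2 fold change of 1.16 ± 0.27 (adjusted p = 0.0620). Of the 14 genes 9 lay above 0, with a median of 0.82.

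Of 22 measured genes of T cell state and subset, 1 rose and 18 lay above 0, with a median of 0.31. The gene that rose was Ccr7, the homing receptor of naive T cells and of migrating dendritic cells, at 19.3, 13.9 and 66.1 in Dox and 0.822 and 1.18 in NoDox. Its NoDox signals were 6.0 and 8.6 units, so the log2 fold change of 4.73 ± 0.88 (adjusted p = 0.0276) was 1.51 with an offset of 100 units (adjusted p = 0.119). With single arrays left out the call held without Dox 2 (0.0211) and not without Dox 1, Dox 3, NoDox 1 or NoDox 2 (0.0507 to 0.235). Dendritic cell genes rose in 6 of 11, Ccr7 being 1 of the 6. Itgae, the CD103 integrin of epithelial T cells and some dendritic cells, had 1.27 ± 0.33 (adjusted p = 0.0825).

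Of 17 further cytotoxic and NK genes 1 rose and 12 lay above 0, with a median of 0.62. Ctsw, a cathepsin of NK and cytotoxic T cells, had 5.06, 12.5 and 11.6 in Dox and 0.868 and 1.13 in NoDox (3.19 ± 0.63, adjusted p = 0.0335). All Dox arrays were several-fold above NoDox, and, as for Klrd1, Dox 3 did not stand apart. Its NoDox signals were 26.7 and 34.8 units, and its call was lost with an offset of 100 units (1.55, adjusted p = 0.0583). With single arrays left out it held without Dox 1 (0.0342) and not without Dox 2, Dox 3, NoDox 1 or NoDox 2 (0.0519 to 0.263). Cd244a, an NK receptor of the SLAM family, had 1.77 ± 0.41 (adjusted p = 0.0615).

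Of 12 measured genes of type 2 lymphocytes none passed the limma test (2 were higher and 2 lower at an unadjusted p under 0.05) and 7 lay above 0, with a median of 0.49. Il18r1, a receptor for interleukin-18, had 4.05, 1.41 and 4.21 in Dox and 1.07 and 0.925 in NoDox (1.54 ± 0.50, adjusted p = 0.157). Ptgdr2, the prostaglandin D2 receptor CRTH2, had 0.393, 0.167 and 0.143 in Dox and 0.692 and 1.31 in NoDox (-2.17 ± 0.77, adjusted p = 0.184). The groups did not overlap in either gene, and the signs were opposite.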

How the data were processed

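Esophagus RNA was hybridised to Affymetrix Mouse Genome 430 2.0 arrays, 3 Dox and 2 NoDox, grouped by title. Per the submitters' notes in the labels, signals came from MAS 5.0 and were normalized in GeneSpring 7.3.1, pair-wise to controls. The deposited values are linear ratios made by the authors. The NoDox values sum to 2, within 0.0001, in 45099 of 45101 probe sets, which shows the mean of the NoDox arrays as the reference. Ratios carry no detection call, and the number of arrays limits the precision.

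Signal levels were recovered as whole step numbers (at most 50000, relative tolerance 3e-07, chance limit 0.01) after a scaling factor per array was estimated. A level was found for 40022 probe sets (88.7%), and for 6 of 4000 with shuffled ratios. On 20000 test probe sets drawn by computer, 96.08% of the levels found were right. The rest were given a lower bound. Of the lymphocyte genes only Ms4a1 has such a bound at its chosen probe set.

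Log2 ratios were fitted with limma 3.58.1 (lmFit, eBayes with a trend on level; R 4.3.3), two-sided, with 3 residual and 6.1 prior degrees of freedom. Each gene was represented by its brightest probe set, out of 34945 with 1 symbol, with the lower bound used where no level was found. Rora probe sets with such a bound gave -0.99 and -0.97 and may be brighter than the chosen one. With 3 arrays against 2, an exact permutation test reaches p = 0.1 at the lowest. In drawn data with no change 0 of 18193 genes were called, and of 200 genes changed 2-fold, 4-fold and 8-fold 85, 137 and 159, with 5, 9 and 12 false calls. Python 3.11.15 with numpy 2.4.6, pandas 2.3.3 and matplotlib 3.10.9 made tables and plots.

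The genes and lists were chosen with earlier results of these data known. The genes open to naming were all listed lymphocyte genes, the called genes and the 3 of smallest p in each further list, and reference genes, and the text gives a part of those in further lists. Fcrl1, Pou2af1, Cr2, Fcer2a, Glycam1 and Madcam1 were named after their values were seen. Alternatives covered the variance model, trend, probe set, scaling, offset, filter, weights, replicate number, threshold and single arrays.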

Additional observations from a re-analysis of the deposited data

How the results depend on the processing

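The alternatives were run for the counts of called genes, the lineage medians and the genes open to naming. Among these medians and genes the direction held for all but the T cell median and 9 single genes that passed no test. The alternatives were not run for the medians of further lists, nor for Fcrl1, Pou2af1, Cr2, Fcer2a, Glycam1 and Madcam1. Leaving out single arrays gave Cd3g -1.28 to 0.30 (above 0 without Dox 2), Cd6 -0.21 to 2.31 (below 0 without NoDox 2), Cd27 -0.14 to 0.46 (below 0 without Dox 3, and at -0.00075 without Dox 1) and Cd28 -0.37 to 0.14 (above 0 without NoDox 1, and at 0.024 without Dox 2). It gave Foxp3 -0.55 to 0.63 (below 0 without NoDox 2, and at -0.17 without Dox 2), Gata3 -0.099 to 3.40 (below 0 without NoDox 1), Zap70 -0.55 to 0.27 and Cd79a -0.35 to 2.45 (both changing sign without Dox 3), and Krt4 -0.18 to 0.12 (above 0 without NoDox 2, and at 0.0039 without Dox 3). With the replicate block the values were -0.14 for Cd27, 0.27 for Zap70, -0.35 for Cd79a and 0.0039 for Krt4. Foxp3 was -0.0036 with an offset of 100 units and -0.013 with quantile normalized signals, and Krt4 was 0.059 with median centring and 0.031 and 0.11 with quantile normalization of ratios and of signals. Of the lymphocyte genes, 1 rose in the reported fit. With array weights, the replicate block or without the dimmest genes (the lowest 1/3 by level) 2 rose (Klrd1 and Il7r), at adjusted p under 0.1 there were 3, and without a variance trend, with the trend on the mean log2 ratio or with quantile normalization of the ratios there were 0 (5 at an unadjusted p under 0.05 in each). Leaving out single arrays gave 0 to 2. The 1 that fell was lost (0) without a trend, with the trend on the mean ratio, with either quantile normalization and with the mean of all probe sets, and leaving out arrays gave 0 to 1. The T cell median of 0.11 was -0.18 without the dimmest genes and -0.21 to 0.30 without single arrays. The cytotoxic and NK median of 0.89 was 0.53 with an offset of 100 units and 0.56 to 1.25 without single arrays, and the B cell median was 0.37 to 1.99.

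Over all genes 253 rose and 225 fell. The counts were 464 and 526 at adjusted p under 0.1, 457 and 529 with array weights, 6 and 0 without a trend, 49 and 11 with quantile normalized ratios, and 0 and 0 with the trend on the mean ratio (2386 at an unadjusted p under 0.05). Leaving out arrays gave 42 to 380 and 9 to 507, and 376 fell without the dimmest genes. Median centring gave 308 and 151, and quantile normalization of the recovered signals, chosen after seeing the data, 285 and 112. The replicate number pairs nothing that the labels state. Same-numbered arrays had deviations correlated at 0.031 and 0.051, and the fit with the replicate block gave 362 and 496, with Dox 3 in a term of its own. A fit without 1 NoDox array assumes that the other varies like the Dox group.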
